A study of Homo sapiens with 12 samples.

Results

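The genes described here are 60 named ribosome biogenesis factors, the proteins that process ribosomal RNA (rRNA) and assemble it into ribosomal subunits in the nucleolus. They were taken by gene symbol from a list, by a rule that uses no measured value, and all 60 were found among the 60609 genes in the deposited count files. The data were RNA-seq counts from K562, an established human cell line of chronic myeloid leukemia. The cells had been treated for 48 h with DMSO, the solvent (3 libraries), or with 10 μM FT671, a small-molecule inhibitor of the ubiquitin-specific protease USP7 (3 libraries). The comparison asks how blocking USP7 in leukemic cells changes the expression of these genes. Both groups were the same line. The paper describes the replicates as independent experiments, all with 1 cell line.

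Ribosome assembly starts on the long precursor rRNA transcribed from ribosomal DNA. Small nucleolar ribonucleoproteins (snoRNPs) of the C/D box type methylate it, those of the H/ACA box type convert uridines to pseudouridines, and the C/D box U3 snoRNP helps to fold and cleave it. The small subunit (SSU) processome gathers around the part that becomes the small subunit, while other factors build the large subunit, and the resulting pre-40S and pre-60S particles mature on the way to the cytoplasm. Fast-growing leukemic cells make many ribosomes, and these genes are known targets of growth-promoting transcription factors such as MYC. The 60 genes were divided by known role into 4 nucleolar scaffold proteins and chaperones, 3 C/D box and 4 H/ACA box snoRNP core proteins, 23 proteins of the SSU processome, 4 factors of pre-40S maturation and 22 of pre-60S assembly.

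Total counts ranged from 4555220 to 14250500 per library, so that 3 counts, taken as the smallest detectable amount, equal 0.211 to 0.659 CPM (counts scaled to a common library size). This floor covers counting error only. The cells matched their label, with 182 to 1079 counts of HBG1 and 1136 to 4672 of GATA1, both erythroid genes that K562 expresses, and with 0 counts of MTAP and 1 count in all of CDKN2A, 2 genes deleted in this line. Of the markers of other cell types, CD3E had 0 to 4 counts and ALB 0 to 2, while EPCAM had 346 to 954. USP7 mRNA itself was 119, 107 and 131 CPM with DMSO and 29.3, 34.1 and 35.8 CPM after FT671 (log2 fold change −1.82 ± 0.10, SE). An inhibitor acts on the protein, so this mRNA is no check of the treatment. DMSO replicate 3 differed more from the other DMSO libraries (chi-square per degree of freedom 7.55 and 8.73) than the other pairs of replicates differed from each other (2.07 to 3.20), and the main counts are also given without it.

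Most ribosome biogenesis factors were expressed more after FT671. At an adjusted p of 0.05 from edgeR's quasi-likelihood test, 35 of the 60 genes rose (58.3%) and 2 fell (3.33%), while 23 did not pass. Over all 13895 genes tested, 23.6% rose and 26.5% fell. Log2 fold changes of the 60 genes ranged from −0.65 to 1.38 around a median of 0.34, against a median of −0.01 over all genes tested. Without DMSO replicate 3, 37 of the 60 genes rose and 3 fell. Of all 14909 genes tested in that fit, 3830 rose (25.7%) and 4100 fell.

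In 37 of the 60 genes every FT671 library was higher than every DMSO library, in 4 every FT671 library was lower, and in 19 the groups overlapped. Every FT671 library was higher in 26.8% and lower in 30.3% of all genes tested. Without DMSO replicate 3 the numbers among the 60 genes were 40 and 5, but groups separate more easily with fewer libraries. The shares of all genes were not counted for that setting. At the stricter adjusted p of 1e-05, 6 of the 60 genes rose (RRP9, UTP20, NOLC1, LYAR, NCL and MRTO4) and 0 fell by edgeR, against 1.79% and 4.13% of all genes. By DESeq2's Wald test, 21 rose and 1 fell. The edgeR count of rises at 1e-05 also depended on single libraries. It was 22 without DMSO replicate 3, 1 without FT671 replicate 3, 2 without DMSO replicate 1, FT671 replicate 1 or FT671 replicate 2, and 3 without DMSO replicate 2. The shares of all genes past 1e-05 were not counted for DESeq2 or for these fits, so these numbers have no background beside them. CPM is a share of all counted RNA, so that more of an mRNA per cell and less of other RNA cannot be told apart.

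**Figure D1:**
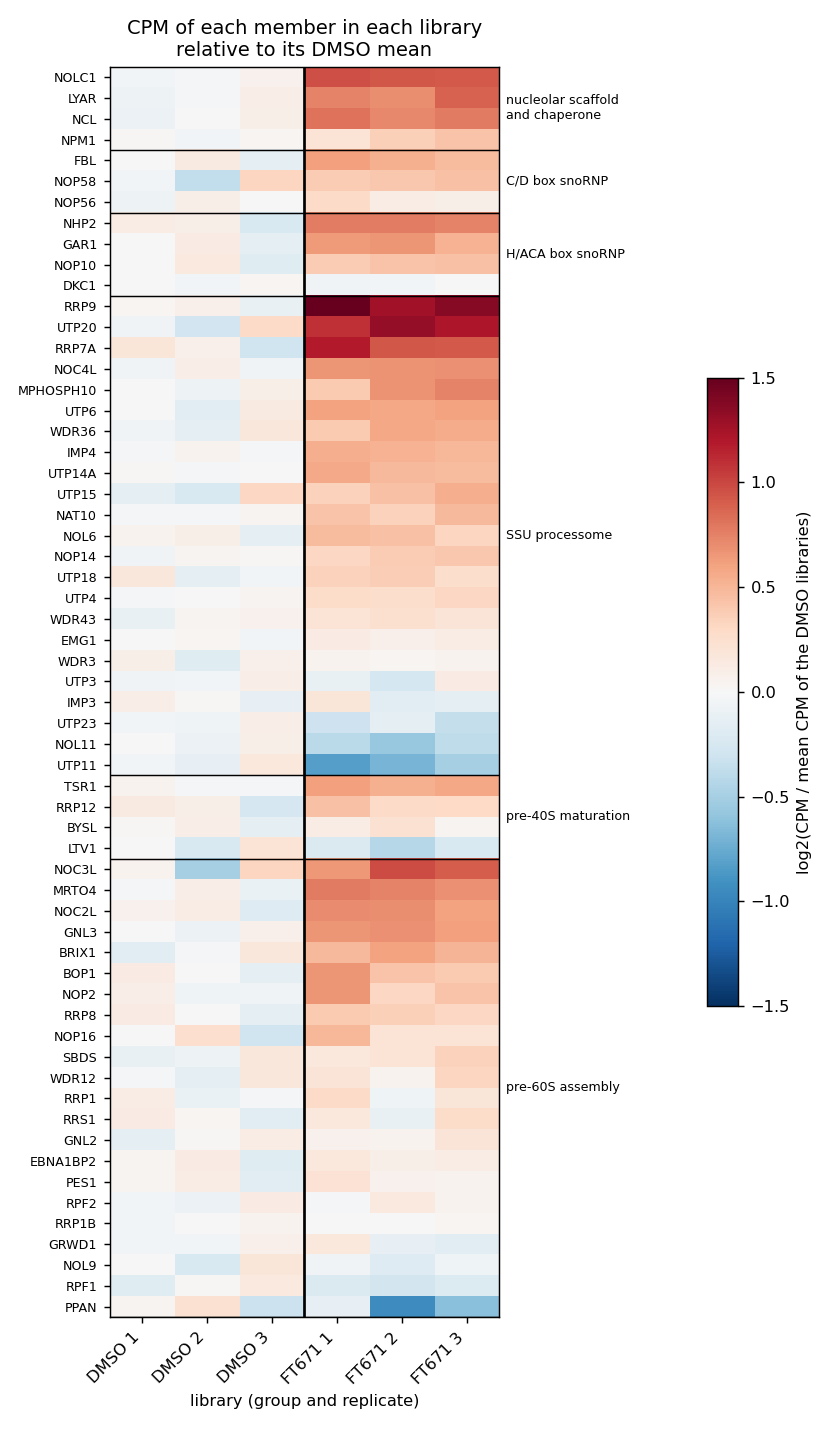
Heat map of the 60 genes (rows, by role and by fold change) in the 6 libraries (columns). Color is the log2 of the CPM over the mean CPM of the 3 DMSO libraries, and the thick line divides DMSO from FT671. RRP9 and UTP20 are the darkest red in the FT671 columns, UTP11 and NOL11 are blue in all 3, and many pre-60S rows are pale.

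**Figure D2:**
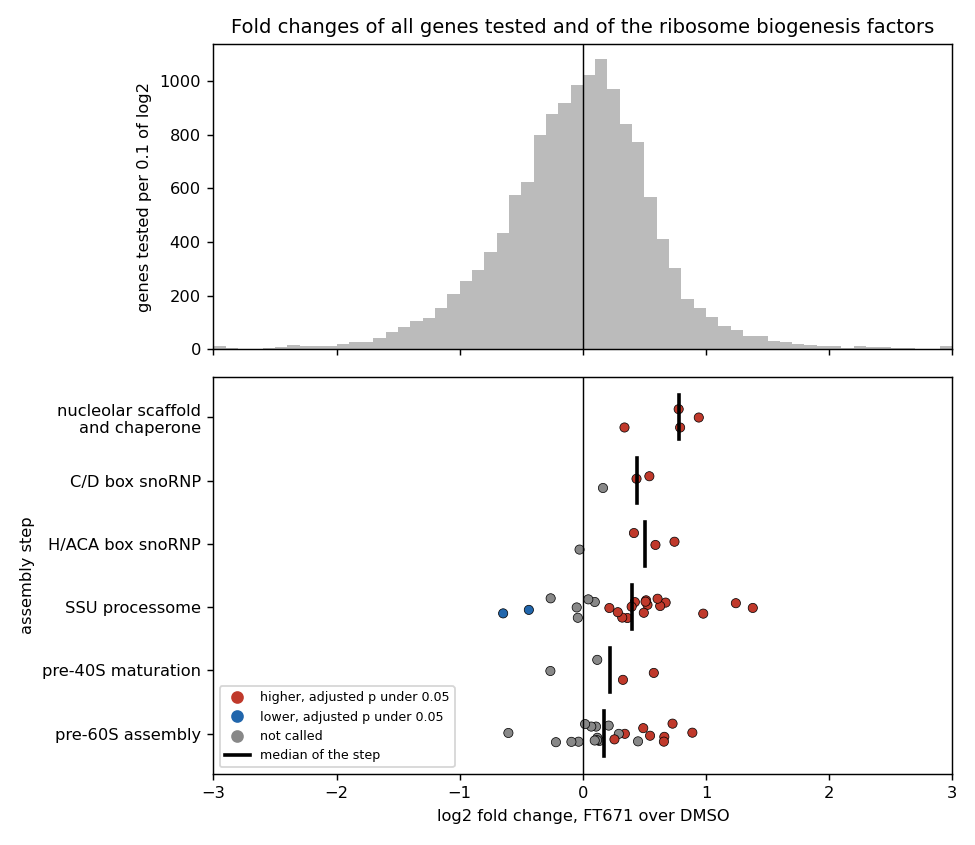
Top, number of the 13895 genes tested by log2 fold change of FT671 over DMSO, in bins of 0.1, with values beyond 3 in either direction placed in the outermost bins. Bottom, the 60 genes by role, with red for higher, blue for lower and gray for not called at an adjusted p of 0.05, and a black bar at the median of each role, which runs from 0.17 (pre-60S assembly) to 0.78 (scaffold and chaperone).

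All 4 nucleolar scaffold and chaperone genes rose, with a median log2 fold change of 0.78. NOLC1 (Nopp140), a phosphoprotein that accompanies snoRNPs through the nucleus, was 211, 214 and 227 CPM in DMSO replicates 1 to 3 and 425, 415 and 411 CPM in FT671 replicates 1 to 3. The 2 groups lay far apart relative to their spread, and the log2 fold change was 0.94 ± 0.07 (SE, adjusted p = 1.44e-07 from edgeR). NCL (nucleolin), which binds precursor rRNA and is among the most abundant nucleolar proteins, was 654, 699 and 738 CPM with DMSO and 1230, 1150 and 1200 CPM after FT671. Every FT671 library was above every DMSO library (log2 fold change 0.78 ± 0.07, adjusted p = 1.09e-06).

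LYAR, a zinc finger protein of the nucleolus, was 65.7, 68.2 and 74.5 CPM with DMSO and 116, 113 and 128 CPM after FT671. All FT671 libraries were higher (log2 fold change 0.79 ± 0.08, adjusted p = 4.22e-06 from edgeR). NPM1 (nucleophosmin), a histone and ribosome chaperone that is often mutated in acute myeloid leukemia, was 481, 464 and 486 CPM with DMSO and 552, 613 and 643 CPM after FT671. It rose in every library as well, but with the smallest log2 fold change of the 4 (0.34 ± 0.07, adjusted p = 0.00149).

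Of the snoRNP core proteins, 2 of 3 for the C/D box and 3 of 4 for the H/ACA box rose, with median log2 fold changes of 0.44 and 0.50. FBL (fibrillarin), the methyltransferase of the C/D box snoRNPs, was 447, 490 and 408 CPM with DMSO and 687, 648 and 624 CPM after FT671. The lowest FT671 library was well above the highest DMSO library (log2 fold change 0.54 ± 0.08, adjusted p = 6.59e-05 from edgeR). NOP58 and NOP56 are the paired scaffold proteins of the same particle. NOP58 was 64.6, 51.3 and 83.2 CPM with DMSO and 86.6, 88.2 and 90.4 CPM after FT671. The groups were separate but DMSO replicate 3 came close to FT671, and the log2 fold change of 0.44 ± 0.13 (adjusted p = 0.0129) did not pass without FT671 replicate 3 (0.42, adjusted p = 0.057). NOP56 was 128, 143 and 134 CPM against 165, 146 and 144 CPM. Its groups were also separate, by a narrow margin, and the log2 fold change of 0.16 ± 0.08 did not pass (adjusted p = 0.102), although it did under corrections for gene length and GC content (0.22 to 0.24, adjusted p 0.00834 to 0.0169).

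Of the H/ACA proteins, the small RNA-binding subunit NHP2 was 69.1, 68.4 and 54.7 CPM with DMSO and 109, 109 and 107 CPM after FT671. Its FT671 libraries hardly differed and all exceeded DMSO (log2 fold change 0.74 ± 0.09, adjusted p = 1.77e-05 from edgeR). GAR1 and NOP10, the other small subunits, rose with log2 fold changes of 0.59 and 0.42. DKC1 (dyskerin), the pseudouridine synthase of the same particle, was 228, 221 and 231 CPM with DMSO and 219, 220 and 228 CPM after FT671. The groups overlapped, and the log2 fold change was −0.03 ± 0.07 (adjusted p = 0.761). Its sign turned to positive (0.01 to 0.12) under corrections for gene length and GC content.

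**Figure D3:**
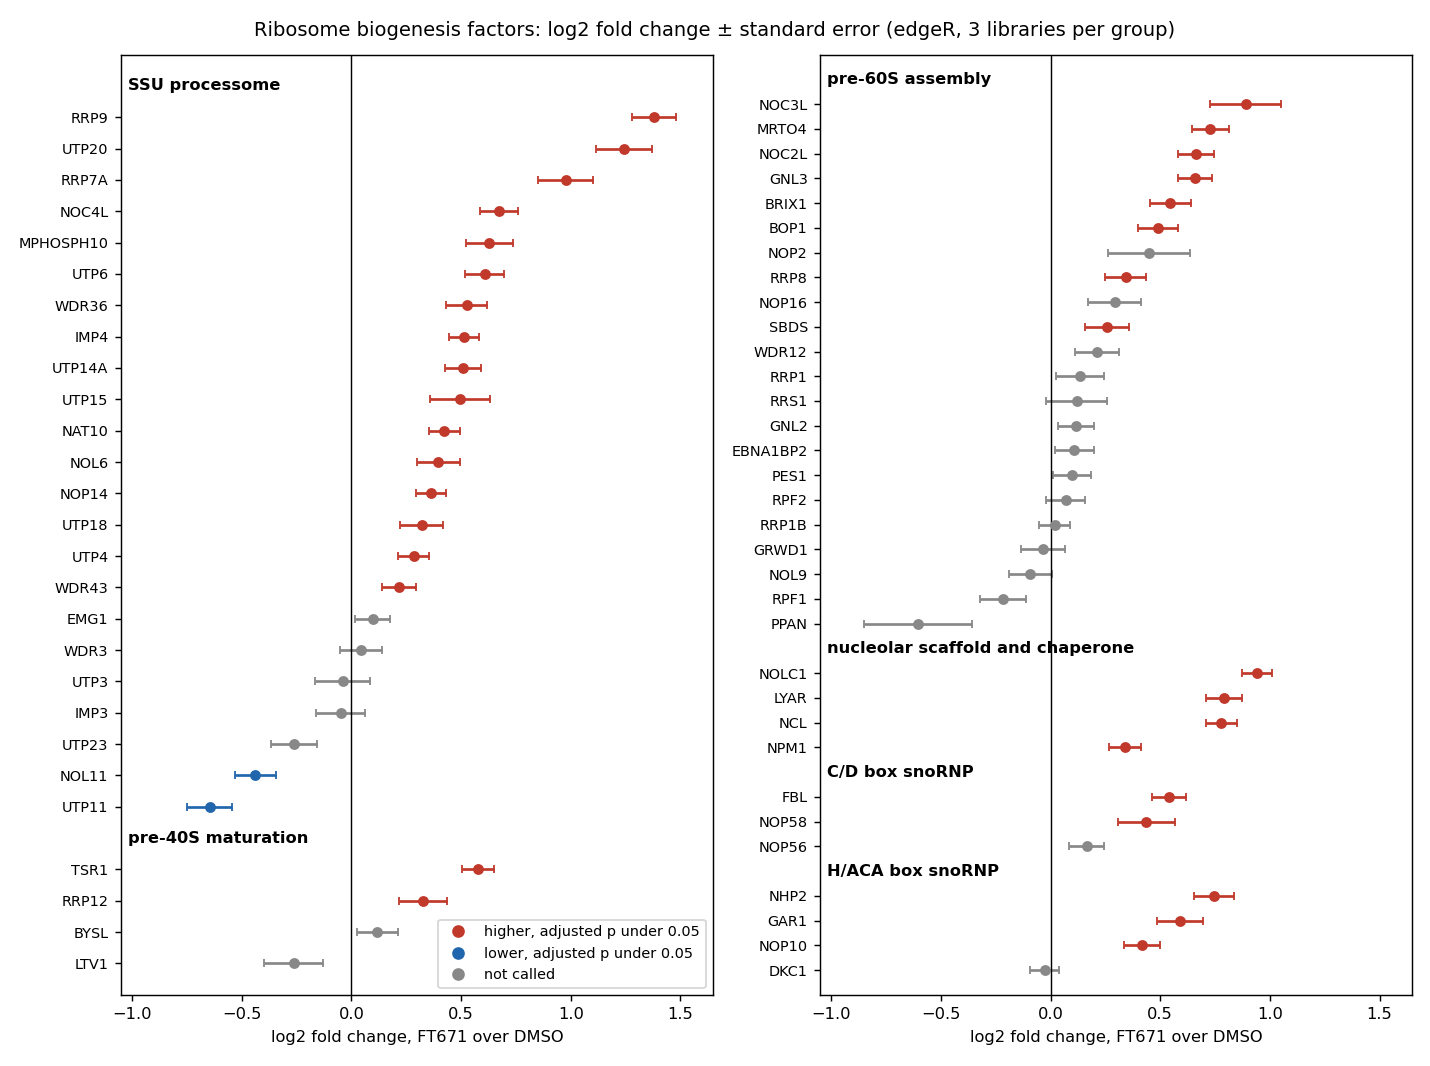
Log2 fold change of FT671 over DMSO for each of the 60 genes (points, with bars of ± 1 standard error from edgeR, 3 libraries per group), in panels by role. RRP9 (1.38), UTP20 (1.24) and RRP7A (0.98) lie farthest to the right, and UTP11 (−0.65) and PPAN (−0.60) farthest to the left, of which PPAN did not pass the test.

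In the SSU processome 16 of 23 genes rose, 2 fell and 5 did not pass, with a median log2 fold change of 0.40. The role held both the largest rise and the largest fall past the threshold among the 60 genes. RRP9 (U3-55K, ENSG00000114767, chr3:51933429-51941904), the protein specific to the U3 snoRNP, was 29.7, 30.5 and 26.8 CPM with DMSO and 84.6, 69.5 and 74.7 CPM after FT671. The lowest FT671 library was more than 2 times the highest DMSO library, and the fold was 2.60 (log2 fold change 1.38 ± 0.10, adjusted p = 1.79e-07 from edgeR). UTP20 (chr12:101280105-101386618), a very large protein of the processome, was 27.5, 23.5 and 34.8 CPM with DMSO and 61.3, 71.3 and 66.4 CPM after FT671. All FT671 libraries were higher, with a fold of 2.37 (log2 fold change 1.24 ± 0.13, adjusted p = 3.07e-06).

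RRP7A, a partner of NOL6 in the processome, was 29.3, 27.4 and 21.1 CPM with DMSO and 58.9, 49.3 and 49.1 CPM after FT671. Its groups did not overlap (log2 fold change 0.98 ± 0.13, adjusted p = 2.33e-05 from edgeR). RRP7A has a transcribed copy, RRP7BP, which held 15.9% as many counts and had a log2 fold change of 0.94, and it shares 1935 exon bases with SERHL on the opposite strand, so its value is less certain than that of RRP9. NOL6 itself rose by 0.40.

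UTP11 and NOL11 were the only 2 of the 60 genes that fell at 0.05 in this fit. UTP11 (chr1:38009258-38024820), a U3-associated protein of the processome, was 93.6, 88.1 and 107 CPM with DMSO and 54.4, 59.2 and 68.0 CPM after FT671. The highest FT671 library was below the lowest DMSO library, and the fold was 0.639 (log2 fold change −0.65 ± 0.10, adjusted p = 1.28e-04 from edgeR). NOL11 (chr17:67717931-67744531), one of the t-UTPs that link transcription of ribosomal DNA to processing of the transcript, was 67.1, 63.2 and 71.9 CPM with DMSO and 51.1, 45.5 and 51.8 CPM after FT671. Here too the groups were separate (fold 0.738, log2 fold change −0.44 ± 0.09, adjusted p = 0.00143).

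The other subunits of the same complexes moved less uniformly. The other 3 t-UTPs on the list all rose, with log2 fold changes of 0.50 for UTP15, 0.28 for UTP4 and 0.22 for WDR43, in the direction opposite to NOL11. UTP15 did not pass without FT671 replicate 3 (0.44, adjusted p = 0.0575). WDR43 did not pass without DMSO replicate 1 or without any single FT671 library (0.16 to 0.23, adjusted p between 0.0676 and 0.172), and it also failed with scaling by library totals and without a filter on low counts. Of the UtpB complex, a rod-like module that binds the U3 snoRNP, UTP6 (0.61), WDR36 (0.53) and UTP18 (0.32) rose and WDR3 had a log2 fold change of 0.05 (adjusted p = 0.724). UTP18 did not pass without DMSO replicate 2 (0.25, adjusted p = 0.068) or FT671 replicate 2 (0.30, adjusted p = 0.0604). Without DMSO replicate 2 the value of WDR3 was −0.04.

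Of the MPP10 complex, which joins U3 to the precursor rRNA, MPHOSPH10 and IMP4 rose with log2 fold changes of 0.63 and 0.51, while IMP3 was at −0.05 (adjusted p = 0.738). The sign of IMP3 was positive under the GC correction and without any 1 of 3 libraries (DMSO replicate 1, FT671 replicates 2 and 3), by at most 0.05. IMP3 shares 795 exon bases with the antisense gene SNX33 (log2 fold change −0.78). The remaining genes that rose were NOC4L (0.67), UTP14A (0.51), NAT10 (0.42), which acetylates cytidines of rRNA, and NOP14 (0.36). EMG1, a methyltransferase for pseudouridine, was at 0.10 and UTP3 at −0.04. EMG1 shares 3096 of its 5575 exon bases with LPCAT3 on the opposite strand (log2 fold change −0.17), so its value is less certain. UTP23 was 33.9, 33.5 and 37.5 CPM with DMSO and 28.2, 31.8 and 27.4 CPM after FT671. All of its FT671 libraries were lower but it did not pass (log2 fold change −0.26 ± 0.11, adjusted p = 0.0543). It passed with scaling by library totals, with at least 10 counts in every library and under the GC correction with and without a replicate block (adjusted p 0.0208 to 0.0471). UTP23 shares 576 exon bases with RAD21 on the other strand (log2 fold change −0.08).

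Promoters were read for the genes with the largest rises and for both genes that fell, to show the letters in which 2 motifs were searched. The sequences below are RefSeq's (GRCh38.p14), with 250 bases before the transcription start and the first 10 bases after it, 5′ to 3′ on the strand of the gene. Capitals mark CACGTG, the E-box that MYC and related factors can bind. RRP9 lies on the minus strand (chr3:51941895-51942154), and UTP20 (chr12:101279855-101280114), UTP11 (chr1:38012484-38012743) and NOL11 (chr17:67717686-67717945) lie on the plus strand. RefSeq's start of UTP11 lies inside the gene as GENCODE draws it.
RRP9: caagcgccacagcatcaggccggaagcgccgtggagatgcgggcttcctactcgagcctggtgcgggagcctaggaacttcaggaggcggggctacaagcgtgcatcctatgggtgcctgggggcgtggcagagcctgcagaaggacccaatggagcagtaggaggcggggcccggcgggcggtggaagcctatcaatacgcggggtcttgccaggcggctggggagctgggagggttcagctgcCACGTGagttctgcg
UTP20: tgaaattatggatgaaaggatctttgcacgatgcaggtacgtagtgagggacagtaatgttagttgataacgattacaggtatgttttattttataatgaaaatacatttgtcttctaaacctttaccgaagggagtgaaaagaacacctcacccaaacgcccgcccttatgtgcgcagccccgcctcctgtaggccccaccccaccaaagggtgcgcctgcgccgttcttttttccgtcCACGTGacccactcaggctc
UTP11: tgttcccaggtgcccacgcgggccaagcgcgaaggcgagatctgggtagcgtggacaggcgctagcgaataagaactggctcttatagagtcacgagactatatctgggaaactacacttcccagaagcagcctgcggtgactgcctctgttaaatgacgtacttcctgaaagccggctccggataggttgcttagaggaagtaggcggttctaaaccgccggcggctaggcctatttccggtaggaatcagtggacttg
NOL11: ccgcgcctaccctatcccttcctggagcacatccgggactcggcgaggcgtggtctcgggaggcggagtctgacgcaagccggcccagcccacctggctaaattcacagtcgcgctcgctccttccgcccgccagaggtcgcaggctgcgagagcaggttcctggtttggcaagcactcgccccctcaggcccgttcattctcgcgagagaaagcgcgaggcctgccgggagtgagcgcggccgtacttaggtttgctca

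In RRP9 the E-box lies across the transcription start, from base 246 of the window of 260 bases, and in UTP20 it begins at base 241. The UTP11 and NOL11 windows hold neither CACGTG nor the other motif searched, CCGGAAGT, the core of the sites of ETS factors such as GABPA. The 10 bases after the start were added once it had been seen that the E-box of RRP9 crosses the start. RefSeq's table held a single start for 44 of the 60 genes, several starts for 7 and no entry for 9. Both motifs were searched on both strands, which are the same letters for CACGTG, and the motifs do not overlap each other.

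CACGTG was found in 9 of the 44 promoters (20.5%), against 9.83% of the promoters of genes tested and 6.63% of all promoters in the table. The holders were RRP9, UTP20, UTP4, UTP14A, UTP18, WDR43 and NAT10 of the SSU processome, NOP10 of the H/ACA snoRNP and GNL2 of pre-60S assembly. It was in 8 of the 25 promoters of genes that rose (32.0%), in 1 of 17 of those not called (5.88%) and in 0 of 2 of those that fell. With the 250 bases before the start alone, the counts were 6 of 25 (24.0%) and 0 of 17, against 9.37% of genes tested. CCGGAAGT was in 4 of 25 promoters of genes that rose (16.0%) and in 4 of 17 of those not called (23.5%), against 9.61% of genes tested. These are counts of letters, made with the fold changes known and without a test, and they do not show binding of any factor.

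Of the 4 factors of pre-40S maturation, 2 rose and 2 did not pass. TSR1, which resembles a GTPase and blocks the early entry of translation factors, was 92.0, 87.5 and 86.9 CPM with DMSO and 136, 129 and 133 CPM after FT671. The groups were clearly separate (log2 fold change 0.58 ± 0.07, adjusted p = 2.10e-05 from edgeR). TSR1 shares 1146 exon bases with the antisense gene SRR, which had a log2 fold change of 0.10. RRP12 rose by 0.33 (adjusted p = 0.0226) but did not pass without FT671 replicate 1 (0.28, adjusted p = 0.0783) or FT671 replicate 3 (0.35, adjusted p = 0.051). BYSL (bystin) was at 0.12, and passed under the GC correction (0.20, adjusted p = 0.0302). LTV1, an assembly factor that leaves the particle before it is finished, was 21.5, 18.2 and 24.6 CPM with DMSO and 18.4, 15.9 and 18.3 CPM after FT671. The groups overlapped, and the log2 fold change of −0.26 ± 0.13 did not pass (adjusted p = 0.118), although it did without DMSO replicate 2 (−0.37, adjusted p = 0.0483) and under the length correction (−0.36, adjusted p = 0.0466). LTV1 shares 511 and 132 of its 1853 exon bases with genes on the same strand that had 0 counts. Reads on such shared bases may not be counted for LTV1, so its level may be too low.

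In pre-60S assembly 8 of 22 genes rose (36.4%) and 14 did not pass, with a median log2 fold change of 0.17. Without DMSO replicate 3, 10 rose and 1 fell, while the numbers in every other role stayed as given. Its share of genes that rose was below the 69.6% of the SSU processome, but the difference between the roles was not tested. A second list of pathway genes, described below, did not repeat it. There 51.2% of pre-60S factors and 47.1% of SSU and pre-40S factors rose. MRTO4, which holds the place of the stalk protein on the growing large subunit, was 55.8, 60.3 and 52.7 CPM with DMSO and 96.8, 94.0 and 90.4 CPM after FT671. The groups lay apart (log2 fold change 0.73 ± 0.08, adjusted p = 8.74e-06 from edgeR). GNL3 (nucleostemin), a GTP-binding protein of stem and tumor cells, was 82.1, 76.5 and 86.1 CPM with DMSO and 129, 131 and 125 CPM after FT671. It was just outside the stricter threshold (log2 fold change 0.66 ± 0.08, adjusted p = 1.01e-05).

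NOC3L and NOC2L, which are related nucleolar assembly factors, also rose. NOC3L was 27.8, 18.9 and 33.3 CPM with DMSO and 42.0, 52.5 and 50.0 CPM after FT671. It had the largest fold change of this role and a wide spread, but no overlap (log2 fold change 0.89 ± 0.16, adjusted p = 4.50e-04 from edgeR). NOC2L rose by 0.66, and shares 373 exon bases with SAMD11 (0.62) on the other strand. BRIX1, which binds early large subunit rRNA, rose by 0.55. Of the PeBoW complex, BOP1 rose (0.49) while its partners WDR12 (0.21, adjusted p = 0.0954) and PES1 (0.10, adjusted p = 0.377) did not pass. WDR12 passed without DMSO replicate 3 (0.29, adjusted p = 0.00373) and under the length (0.36) and GC (0.20) corrections. PES1 passed under the GC correction (0.18, adjusted p = 0.0186).

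RRP8, a methyltransferase, rose by 0.34. SBDS, which releases an anti-association factor from the large subunit and is mutated in Shwachman-Diamond syndrome, was 50.3, 51.4 and 60.8 CPM with DMSO and 60.4, 62.4 and 68.7 CPM after FT671. Its groups overlapped, and its log2 fold change of 0.26 (adjusted p = 0.044) had the largest adjusted p of the genes called. It failed without DMSO replicate 1 (0.20, adjusted p = 0.182), DMSO replicate 2 (0.23, adjusted p = 0.122), FT671 replicate 2 (0.27, adjusted p = 0.087) or FT671 replicate 3 (0.20, adjusted p = 0.203), and also with scaling by library totals, without a filter on low counts and with the length correction. The pseudogene SBDSP1 held 20.7% as many counts as SBDS and had a log2 fold change of 0.78, and reads of the pair may be exchanged.

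Among the pre-60S genes that did not pass, PPAN was 4.99, 5.68 and 3.88 CPM with DMSO and 4.44, 2.53 and 3.13 CPM after FT671. The groups overlapped (log2 fold change −0.60 ± 0.25, adjusted p = 0.0533). It passed without DMSO replicate 3 (−0.71, adjusted p = 0.0162) or FT671 replicate 1 (−0.77, adjusted p = 0.031), and with protein-coding genes alone, the length correction, scaling by library totals or a minimum of 10 counts per library (adjusted p 0.0388 to 0.048). PPAN shares 1374 exon bases with the read-through gene PPAN-P2RY11, and NOP2, an rRNA methyltransferase at 4.58 to 7.55 CPM, shares 2550 with a gene on the same strand that had 0 counts. Reads on such shared bases may not be counted for either gene, so the levels of PPAN and NOP2 may be too low. The log2 fold change of NOP2 was 0.45 (adjusted p = 0.061), and it passed under the length and GC corrections and with protein-coding genes alone (0.46 to 0.55).

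NOP16 was at 0.29 (adjusted p = 0.0563). It passed without DMSO replicate 2 (0.44, adjusted p = 0.00702) and also with all libraries by DESeq2's size factors or Wald test, the replicate block, no filter on low counts and the length and GC corrections (0.25 to 0.39, adjusted p 0.000954 to 0.0496). GNL2 was at 0.12 and passed without DMSO replicate 3 (0.17, adjusted p = 0.0317) and under the length correction (0.22, adjusted p = 0.0255). RPF1, a Brix domain protein, was below DMSO in all 3 FT671 libraries (−0.22, adjusted p = 0.102) and passed without DMSO replicate 1 (−0.31, adjusted p = 0.0399) and under the length (−0.28) and GC (−0.23) corrections. The other 7 (RRP1, RRS1, EBNA1BP2, RPF2, RRP1B, GRWD1 and NOL9) had log2 fold changes between −0.09 and 0.13 and groups that overlapped. Of these, RRP1 passed under the GC correction with the replicate block (0.21, adjusted p = 0.0418).

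On the TPM scale counts are divided by exon length, here that of all annotated exons of a gene together, not of the transcripts expressed. The order of genes therefore depends on the annotation. NPM1 (8311 bases) and FBL (2138 bases) had means of 477 and 448 CPM with DMSO, but 191 and 697 TPM. The 60 genes spanned 3.39 (NOP2) to 697 (FBL) TPM with DMSO, with a median of 63.5. The order at the top by this length was FBL, NOP10 (363) and NCL (261), all clearly apart from the median. After FT671 the mean level of FBL was 977 TPM and that of NCL 428. NOLC1 was at 183 TPM with DMSO, near NPM1 (191), and at 336 after FT671, when NPM1 was at 232. UTP20 was among the lowest, at 9.57 TPM with DMSO and 21.2 after FT671. The median mean CPM of the 60 genes was 74.8 against 22.5 over all genes tested, their median exon length 4357.5 against 4743.5 bases and their median GC content 47.9% against 49.1%. Across the 60 genes, which share the same libraries, Spearman's rho of the log2 fold change was −0.03 with exon length, 0.08 with GC content and 0.18 with mean CPM, as a description. Over all genes tested, rho was −0.15 with exon length, −0.088 with GC content and 0.026 with mean CPM.

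**Figure D4:**
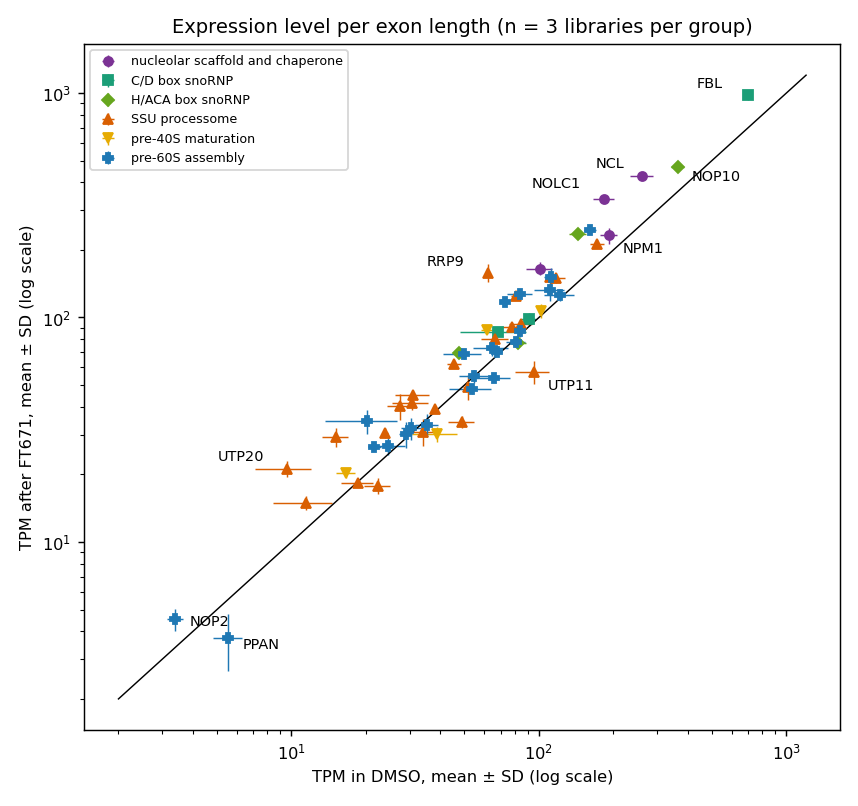
Expression per exon length of the 60 genes with DMSO (horizontal axis) and after FT671 (vertical axis), in TPM on log scales, as mean ± SD of 3 libraries, with a line where both are equal. Symbols and colors give the role. FBL (697 and 977) is highest, NOLC1 (183 and 336) and RRP9 (62.5 and 158) lie above the line, and UTP11 (95.2 and 57.3) lies below it.

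Of the 60 genes, 9 host snoRNA genes in their introns or exons by the annotation, 28 snoRNA genes in all. The hosts GNL3 (6 snoRNA genes), NOP58 (4), NCL (3), WDR43 (3) and TSR1 (2) rose. NOL11, host of SNORA38B, fell, and NOP56 (5), DKC1 (2) and PPAN (2) did not pass. The host mRNAs were measured here, and the snoRNAs are not described.

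A second list of 121 genes of the same pathway, which holds none of the 60, was examined in the same fit. Of its 119 genes with enough counts, 55 rose (46.2%), 13 fell (10.9%) and 51 did not pass, with a median log2 fold change of 0.24, beside the 23.6% of all genes tested that rose and the 26.5% that fell. Without DMSO replicate 3, 67 rose and 15 fell, in a fit where 25.7% of all genes tested rose. DDX47 (3 to 16 counts per library) and RBM34 (4 to 19) had too few counts. By part, 16 of 34 further SSU and pre-40S factors rose and 5 fell (median 0.28), 22 of 43 pre-60S factors rose and 2 fell (0.27), 5 of 10 snoRNP proteins rose and 5 did not pass (0.25), 4 of 8 factors of ribosomal DNA transcription rose and 1 fell (0.27), and 8 of 24 subunits of the exosome and RNase MRP rose (33.3%) and 5 fell (20.8%, median 0.07). The shares of the exosome and RNase MRP part lay near those of all genes.

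The largest rises past the threshold were those of TAF1D, a subunit of the SL1 factor of RNA polymerase I, MDN1, the AAA ATPase midasin that strips factors from the pre-60S particle, and RBM28. TAF1D was 63.6, 70.4 and 86.3 CPM with DMSO and 162, 179 and 171 CPM after FT671 (log2 fold change 1.24 ± 0.10, adjusted p = 4.18e-07 from edgeR). MDN1 was 167, 159 and 189 CPM against 344, 363 and 377 CPM (1.08 ± 0.08, adjusted p = 1.66e-07), and RBM28 had a log2 fold change of 1.07 ± 0.09. In all 3 genes the groups did not overlap.

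The largest falls were those of RPP25, a subunit of RNase P and RNase MRP, UBTF and URB2. UBTF, the upstream binding factor that keeps ribosomal DNA open for RNA polymerase I, was 191, 193 and 195 CPM with DMSO and 98.8, 93.8 and 90.9 CPM after FT671. It was the only 1 of 8 factors of ribosomal DNA transcription on the list that fell, and its groups were tight and far apart (log2 fold change −1.03 ± 0.07, adjusted p = 1.20e-07 from edgeR). RPP25 was 25.1, 23.8 and 24.2 CPM against 12.4, 10.3 and 9.65 CPM (−1.21 ± 0.13, adjusted p = 5.11e-06), and URB2 had a log2 fold change of −0.94 ± 0.12 (adjusted p = 2.07e-05).

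**Figure D5:**
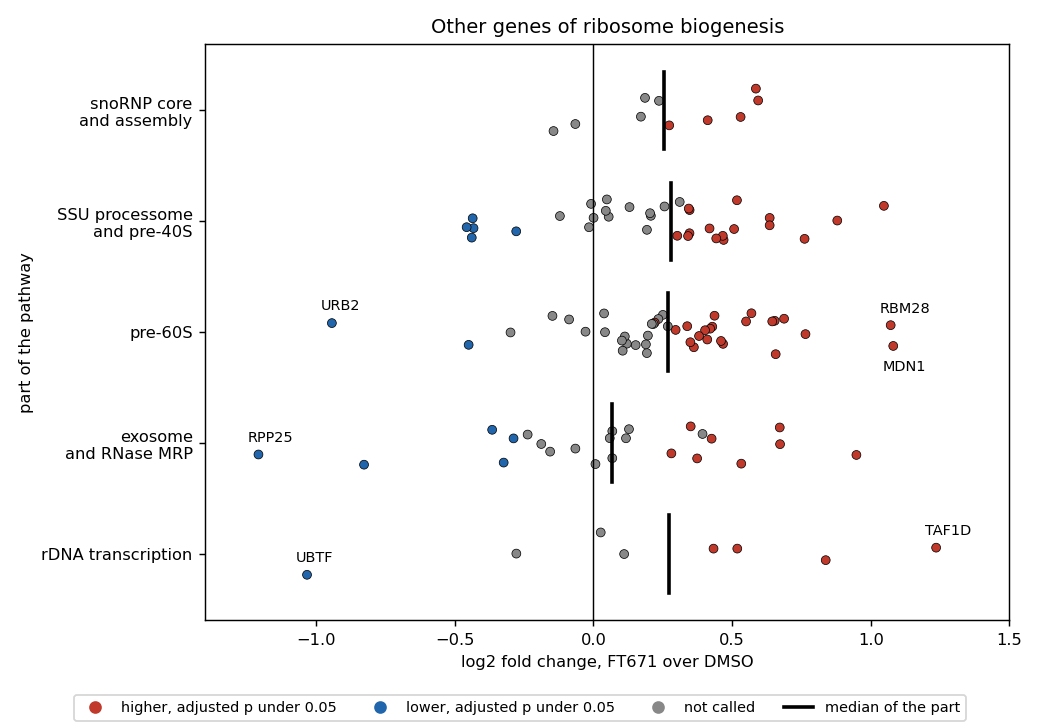
Log2 fold change of FT671 over DMSO for the 119 tested genes of the second list, by part of the pathway, with red for higher, blue for lower and gray for not called at an adjusted p of 0.05 and a black bar at the median of each part. TAF1D (1.24), MDN1 (1.08) and RBM28 (1.07) lie farthest right, and RPP25 (−1.21), UBTF (−1.03) and URB2 (−0.94) farthest left.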

How the data were processed

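RNA-seq of 6 K562 libraries was analysed, and 6 ChIP-seq samples of the series were not analysed here. Total RNA had been depleted of rRNA and made into libraries with the KAPA RNA HyperPrep kit. The authors used STAR (two-pass) and the genome hg38, and the values they deposited are raw counts of reads per gene. Per the paper's methods they tested the counts with DESeq2. The version of STAR, the annotation release and the strand setting of the counting are not given in the sources used here, so overlapping genes and antisense partners cannot be told apart.

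Of 60609 genes listed, 60295 were matched to GENCODE release 44, while 45 copies on the Y pseudoautosomal region were left out and 269 unmatched genes held 0.0609% of counts. Genes were filtered by filterByExpr (13895 kept), scaled by TMM and compared by edgeR's quasi-likelihood test over the 6 libraries without covariates, with Benjamini-Hochberg adjustment over all genes tested (R 4.3.3, edgeR 4.0.16). The thresholds were 0.05 and 1e-05, the latter from the paper's methods. The libraries differed by more than counting error, so none was a copy of another. Alternatives were DESeq2's size factors and Wald test (1.42.0), scaling by totals, other filters, protein-coding genes alone, corrections for gene length and GC content (loess, span 0.3), a replicate block and leaving out each library.

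The 60 genes, the second list and the motifs were chosen with earlier results of these data known. All 60 could be named. Values in every library were given for the 3 largest rises and falls past 0.05, all genes past 1e-05, the extremes of each role, and NPM1, NCL and FBL, and, chosen after their values were seen, for NOP58, UTP23, GNL3 and SBDS. From the second list, the 3 largest rises and falls past 0.05 were named, with DDX47 and RBM34 for their low counts. One marker of another cell type is not reported here.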

Additional observations from a re-analysis of the deposited data

How the results depend on the processing

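Of the 35 genes that rose, 29 kept their call under every alternative run and 33 under those that keep all libraries, and both genes that fell kept theirs. Of the 23 genes not called, 4 had the same call and sign under every alternative and 6 under those that keep all libraries, and 12 passed 0.05 under at least 1 alternative. The number that rose at 0.05 was 30 (without FT671 replicate 3) to 43 (GC correction with the replicate block). In these 2 fits 18.9% and 29.0% of all genes tested rose. The number past 1e-05 in this direction, 6, was 21 with DESeq2's Wald test or the GC correction, 19 without a filter on low counts or with the GC correction and the replicate block, 20 and 12 with the length correction with and without the block, 11 with the replicate block alone, and 1 to 22 with each library left out. For genes that fell past 1e-05, none in the fit reported, the number was 1 with DESeq2's Wald test, the block alone, the block with either correction, the GC correction alone and no filter, and 0 to 1 with each library left out. At 0.05 the number that fell, 2, was 4 with scaling by totals, at least 10 counts in every library, the GC correction with or without the block and the length correction with the block, and 5 with the length correction alone. The number with every FT671 library lower, 4, reached 8 without DMSO replicate 2, where fewer libraries also make groups separate more easily. Scaling by another method moved the median of all genes by at most 0.05 on the log2 scale.

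Signs turned in 7 genes, none of them called. DKC1 was 0.015 and 0.014 with the GC correction and 0.12 with the length correction, in each case without and with the block. GRWD1 was 0.046 and 0.038 with the GC correction and 0.058 and 0.061 with the length correction. IMP3 was 0.035 and 0.046 with the GC correction, and NOL9 was 0.032 and 0.029 with the length correction. RRP1B was −0.015 with scaling by totals and −0.02 without a filter. With each library left out in turn the values ran from −0.13 to 0.034 for GRWD1, −0.15 to 0.0095 for IMP3, −0.0077 to 0.035 for RRP1B, −0.18 to 0.046 for UTP3 and −0.037 to 0.097 for WDR3. The cause of these changes was not tested.

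Whether the replicate numbers pair the samples could not be decided with 3 libraries per group. The variation between replicates that edgeR estimated (coefficient of variation) was 0.0832 without and 0.0736 with the replicate block. Deviations from the group means correlated by 0.115, −0.0605 and 0.14 for numbers 1, 2 and 3, across genes, and only FT671 replicate 3 correlated best with its own number. With the replicate block 36 of the 60 genes rose and 2 fell at 0.05, where 24.3% of all genes tested rose. Depth limits PPAN and NOP2 most, with as few as 14 counts in a library.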
